A study of Mus musculus with 11 samples.

Results

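The genes described here were 40 members of 2 linked stress programmes of mouse liver, the amino acid response of the transcription factor Atf4 and the unfolded protein response of the endoplasmic reticulum (ER). Members were taken by name: a probe belonged to a member when its accession mapped to that RefSeq mouse symbol. An Atf4 and serine synthesis arm held 21 members and an ER arm held 19, out of 22282 genes and other transcripts tested on the array, of which 13963 had a symbol. All 40 members were well above background on all 11 arrays, no spot of theirs was saturated, and none was lost to the filter on dim probes. Livers of 11 male mice were compared: 4 labelled β-catΔEx3:Myc, 3 labelled β-catΔEx3 and 4 labelled WT. β-catΔEx3 is a β-catenin that lacks the exon with the sites marking the protein for destruction, and β-catΔEx3:Myc livers carry it together with Myc, as the labels give them. All mice shared a mainly B6SJL background with a smaller 129S6 part, were 22 to 40 days old, and received no treatment. The design text counts the 4 β-catΔEx3:Myc livers simply as expressing c-Myc and calls all the livers tumour-bearing, WT included. The promoter or Cre that drives each change is not given in the sources used here.

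Each liver was measured on its own array with 1 colour, Cy3. A level is given below as the log2 signal relative to the array's upper quartile, so that 0 is the 75th percentile of that array, and levels were compared between livers and not between genes. The upper quartile ranged from 227 to 354 intensity units over the 11 arrays, and 49.0% to 53.4% of spots were well above background. The 11 arrays came from 4 slides. WT replicates 1 to 3 were on slide 1, and replicates 1 and 2 of both mutant groups were on slide 2. β-catΔEx3:Myc replicate 3 was the single array of slide 3, and slide 4 carried 1 liver of each group, aged 29 days (β-catΔEx3:Myc), 30 days (β-catΔEx3) and 31 days (WT). With slide as a block, both comparisons with WT rest on WT replicate 4 alone. The labels number the mice apart but do not name litters, so p-values measure the spread between these mice and their slides. No mutant liver was on slide 1. Without the block, group and slide cannot be told apart for WT replicates 1 to 3.

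Myc itself checked the model. Its level was 4.65, 3.13, 2.55 and 4.98 in β-catΔEx3:Myc livers, 2.44, 1.39 and 2.08 in β-catΔEx3 livers, against 2.30, -0.12, 0.22 and -0.52 in WT livers. All 4 β-catΔEx3:Myc livers lay above every other liver. Myc was 3.36 ± 0.68 log2 units higher in β-catΔEx3:Myc than in WT livers (SE, 10.3-fold, adjusted p = 0.0029). Between β-catΔEx3:Myc and β-catΔEx3 livers the difference of 1.86 ± 0.73 did not pass the test (adjusted p = 0.40). In β-catΔEx3 against WT livers it was 1.5 ± 0.73 (adjusted p = 0.13). WT replicate 1 stood apart from the other WT livers for Myc; without it the differences from WT were 3.97 in β-catΔEx3:Myc and 2.11 in β-catΔEx3 livers, and the second passed the test (adjusted p = 0.025).

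When amino acids run short or misfolded proteins gather in the ER, kinases phosphorylate the translation factor eIF2α, general protein synthesis slows, and translation of Atf4 increases. Atf4 then activates genes for amino acid synthesis and uptake, for serine and folate metabolism, and for brakes on the response itself. In parallel the ER sensors Ern1 (IRE1) and Atf6 switch on chaperones, folding enzymes and degradation factors, Ern1 by splicing the mRNA of Xbp1. In liver, which secretes most plasma proteins, the ER arm serves secretion and the Atf4 arm serves the response to diet and mitochondrial stress. Because Atf4 is controlled largely at translation, its mRNA level need not follow its activity.

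The promoter windows with the classical motifs are shown first. Members were taken by name as genes of these responses, so the motif shares below describe the lists and are no test of them. RefSeq promoter windows of build GRCm38.p6, from 250 bases before to 50 bases after the start of transcription, were found for 36 of 40 members; Atf6, Eif4ebp1, Manf and Slc7a5 had no entry. The C/EBP-ATF response element, the composite site that Atf4 and its partners bind, was searched as TGATGNAA on both strands. It was present in 6 of 19 promoters of the Atf4 arm (31.6%), in 1 of 17 of the ER arm (5.88%) and in 1219 of 27025 genes in the table (4.51%). The stretches below cover its matches in members whose levels changed, with the matched letters in capitals and up to 30 bases on either side. Those of Asns and Atf3 lie at chr6:7693210-7693262 and chr1:191183406-191183473, both on the minus strand. Those of Nupr1 (minus strand) and Vldlr (plus strand) lie at chr7:126625543-126625610 and chr19:27216790-27216857. Those of Chac1 and Herpud1, both on the plus strand, lie at chr2:119351019-119351086 and chr8:94386287-94386354.
Asns: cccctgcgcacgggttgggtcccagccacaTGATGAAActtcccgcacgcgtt
Atf3: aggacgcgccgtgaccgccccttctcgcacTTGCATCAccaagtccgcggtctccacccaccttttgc
Nupr1: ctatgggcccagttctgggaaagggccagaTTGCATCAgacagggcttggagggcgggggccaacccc
Vldlr: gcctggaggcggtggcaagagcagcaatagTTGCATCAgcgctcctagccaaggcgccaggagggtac
Chac1: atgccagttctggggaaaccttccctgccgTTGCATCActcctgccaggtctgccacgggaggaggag
Herpud1: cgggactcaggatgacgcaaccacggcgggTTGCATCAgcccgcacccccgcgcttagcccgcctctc

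The match of Asns stood closest to the start, at -23 to -16, and that of Trib3 stood after the start, at 14 to 21. The ER stress response element, bound by Atf6 with the CCAAT factor NF-Y, was searched as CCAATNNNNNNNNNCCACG on both strands. It was found in no promoter of the 19 of the Atf4 arm, in 7 of 17 of the ER arm (41.2%) and in 37 of 27025 genes (0.137%). Its holders were Hspa5, Hsp90b1 (2 matches), Calr, Canx, Pdia6, Dnajc3 and Creld2. Of these, Hspa5, Hsp90b1, Pdia6, Dnajc3 and Creld2 were lower in β-catΔEx3:Myc than in WT livers, while Calr and Canx did not pass the test. No member held both elements. Matches are shown for the chaperone Hspa5 (chr2:34771995-34772073, plus strand), for Pdia6, which fell most of the holders (chr12:17266461-17266539, plus strand), for Creld2 (chr15:88819490-88819568, plus strand) and for Canx, which did not fall (chr11:50325770-50325848, minus strand).
Hspa5: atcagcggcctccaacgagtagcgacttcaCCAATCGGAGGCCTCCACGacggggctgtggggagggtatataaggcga
Pdia6: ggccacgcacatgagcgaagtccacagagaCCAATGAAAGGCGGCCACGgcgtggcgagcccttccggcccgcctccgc
Creld2: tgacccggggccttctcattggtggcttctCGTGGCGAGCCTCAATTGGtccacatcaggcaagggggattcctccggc
Canx: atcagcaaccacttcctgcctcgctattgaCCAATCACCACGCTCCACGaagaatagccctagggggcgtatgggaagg

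The unfolded protein response element of Xbp1, searched as TGACGTGG, was in no member's window and in 0.714% of all genes. The E-box CACGTG, a site of Myc and related factors, was in 1 of 19 promoters of the Atf4 arm (Nupr1), 2 of 17 of the ER arm (Calr and Dnajb9) and 8.09% of all genes. A match is a description of the letters and says nothing about binding in these livers.

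**Figure D1:**
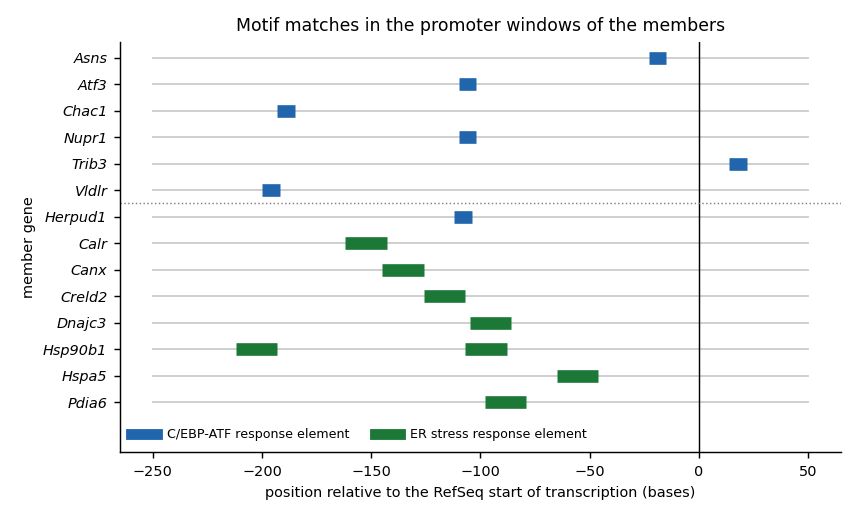
Positions of motif matches in the promoter windows of the 14 members that hold a C/EBP-ATF or ER stress response element (rows; Atf4 arm above the dotted line, ER arm below), in bases from the RefSeq start of transcription. Blue blocks are C/EBP-ATF response elements and green blocks ER stress response elements; blue blocks lie in 6 members of the Atf4 arm and in Herpud1, and green blocks only in the ER arm.

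In both mutant groups most called members of the Atf4 arm were higher than in WT livers, and all called members of the ER arm were lower. In β-catΔEx3:Myc against WT livers, 12 of 21 Atf4-arm members were higher and 2 (Atf5 and Chac1) were lower, while 24.8% of all transcripts tested were called higher and 17.3% lower (adjusted p under 0.05 in both directions). None of the 19 ER-arm members was higher and 12 were lower. The median log2 fold change was 1.37 over the Atf4 arm and -0.80 over the ER arm, beside 0.13 over all transcripts. In β-catΔEx3 against WT livers, 10 Atf4-arm members were higher and 1 (Atf5) was lower, while 21.8% of all transcripts were called higher and 15.4% lower. Again no ER-arm member was higher, and 11 were lower. The medians were 1.24 for the Atf4 arm and -0.70 for the ER arm, beside 0.10 for all transcripts. The 2 comparisons share their WT livers: 10 Atf4-arm members were higher in both and 11 ER-arm members lower in both, while 18.7% of all transcripts were higher in both and 12.7% lower in both.

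With slide as a fixed block the counts were smaller. That fit compares with WT replicate 4 alone, so calls kept under it also depend on where this liver stood. It was the lowest WT liver for Atf3, Phgdh, Slc7a1 and Vldlr, and the highest for Pdia6 and Herpud1. For Asns, Ern1 and Sdf2l1 it was not the WT liver farthest from the mutants. The Vldlr differences from WT were 4.8 (β-catΔEx3:Myc) and 6.1 (β-catΔEx3) with the block, against 2.5 and 3.7 without it. In β-catΔEx3:Myc against WT livers 5 members stayed higher (Atf3, Asns, Phgdh, Slc7a1 and Vldlr) and 4 stayed lower (Pdia6, Ern1, Herpud1 and Sdf2l1). In β-catΔEx3 against WT livers 2 stayed higher (Atf3 and Vldlr) and 3 stayed lower (Pdia6, Herpud1 and Sdf2l1). Over all transcripts the same blocked fit called 4.23% higher and 4.44% lower in β-catΔEx3:Myc livers, and 4.25% higher and 3.91% lower in β-catΔEx3 livers. Every other member's call in these 2 comparisons was lost under the block, and the blocked adjusted p is given below where a member is described in full. The sign of the fold change was the same under the block for 39 of 40 members in β-catΔEx3:Myc livers (Psph was the exception) and for 36 of 40 in β-catΔEx3 livers. Another scaling, by the upper quartile of the probes above background on all arrays, made 48.3% of all calls higher ones in β-catΔEx3:Myc livers, instead of 58.9%, and 42.3% in β-catΔEx3 livers, instead of 58.5%. It moved the median of all transcripts by -0.14 and -0.19 log2 units.

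**Figure D2:**
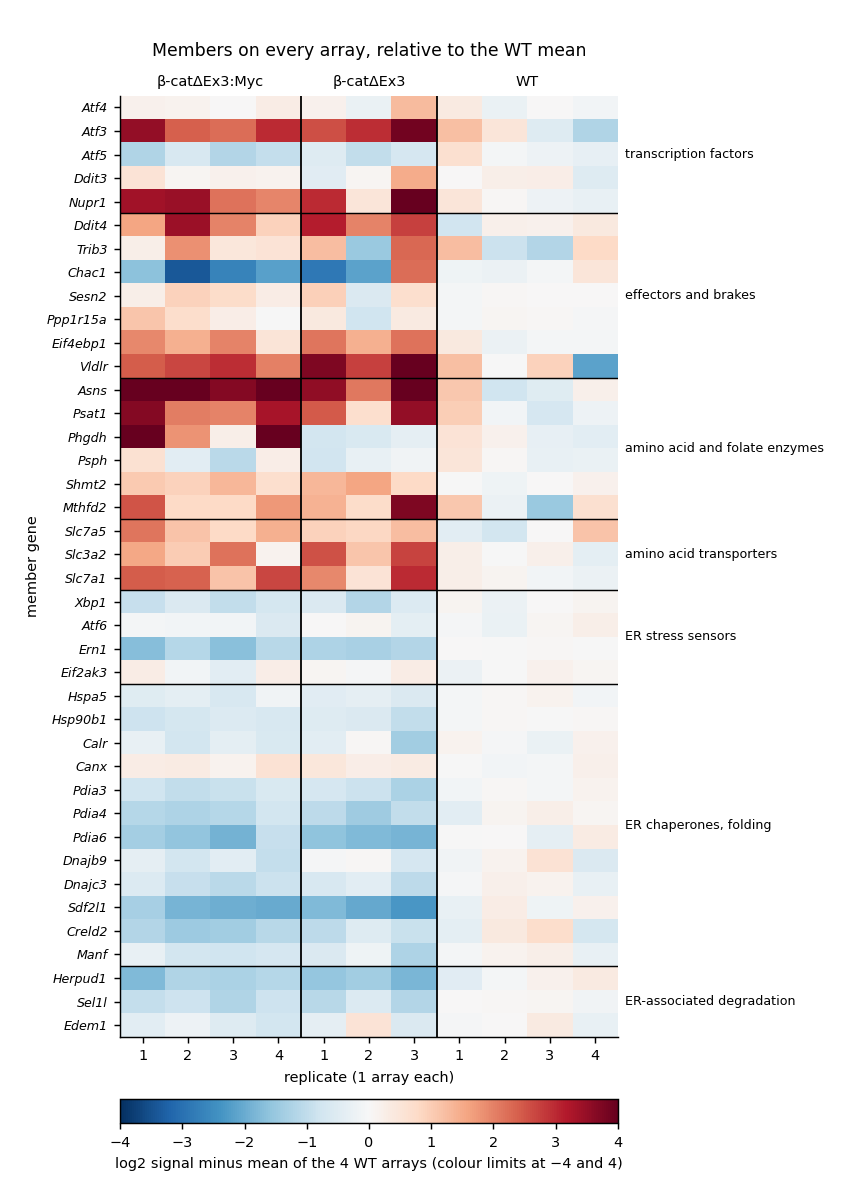
Heat map of the 40 members (rows, grouped by role) on each of the 11 arrays (columns, β-catΔEx3:Myc, β-catΔEx3 and WT from left to right); colour is the log2 signal minus the mean of the 4 WT arrays, red above and blue below. Most enzymes and transporters of the Atf4 arm are red in both mutant groups, and most chaperones and degradation genes are blue.

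Averaged over its 21 members and set to 0 at the WT mean, the Atf4 arm stood at 1.69, 1.27, 0.96 and 1.22 in β-catΔEx3:Myc livers, at 1.25, 0.48 and 2.16 in β-catΔEx3 livers, against 0.41, -0.11, -0.19 and -0.11 in WT livers. The ER arm stood at -0.73, -0.80, -0.90 and -0.71 in β-catΔEx3:Myc livers, at -0.69, -0.61 and -0.96 in β-catΔEx3 livers, against -0.11, 0.04, 0.11 and -0.03 in WT livers. Every mutant liver thus stood above every WT liver for the Atf4 arm and below every WT liver for the ER arm. The difference between the arms, from which the scaling of an array cancels, averaged 2.07 ± 0.25 over 4 β-catΔEx3:Myc livers, 2.05 ± 1.02 over 3 β-catΔEx3 livers and 0.00 ± 0.36 over 4 WT livers (SD). On slide 4, which held 1 liver of each group, it was 1.93 in the β-catΔEx3:Myc liver, 3.12 in the β-catΔEx3 liver and -0.08 in the WT liver. No test was made of these averages, since the members were chosen with results known.

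**Figure D3:**
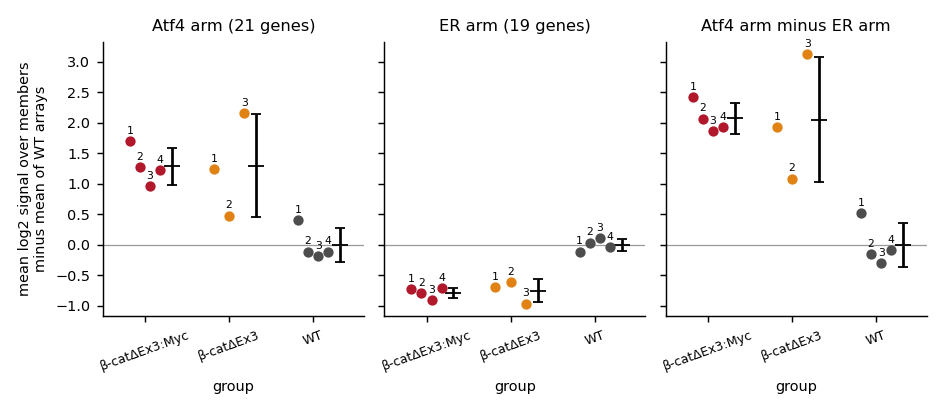
Mean log2 signal over the Atf4 arm (left), the ER arm (middle) and their difference (right) on each array, relative to the WT mean; points carry replicate numbers, and bars are group means ± SD over 4 β-catΔEx3:Myc, 3 β-catΔEx3 and 4 WT livers. β-catΔEx3 replicate 3 has the highest Atf4 arm (2.16) and the lowest ER arm (-0.96).

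Of the 6 enzymes of the Atf4 arm, 4 were higher in β-catΔEx3:Myc and 3 in β-catΔEx3 livers. Asns, which makes asparagine and is a standard readout of the amino acid response, had levels of 7.13, 6.04, 5.69 and 6.76 in β-catΔEx3:Myc livers, 5.55, 4.13 and 6.6 in β-catΔEx3 livers, against 3.10, 1.22, 1.55 and 2.21 in WT livers. No mutant liver overlapped a WT liver. Asns was 4.39 ± 0.56 log2 units higher in β-catΔEx3:Myc than in WT livers (SE, 21-fold, adjusted p = 0.00024, 0.031 with slide as a block). In β-catΔEx3 against WT livers it was 3.41 ± 0.61 higher (10.6-fold, adjusted p = 0.0019, 0.063 with slide as a block). This value was 4.06 with β-catΔEx3 replicate 2 left out and 2.82 with replicate 3 left out, both past the threshold.

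Serine synthesis runs from Phgdh through Psat1 to Psph, and its 3 enzymes did not move alike. Psat1, the aminotransferase, had levels of 3.2, 1.59, 1.51 and 2.84 in β-catΔEx3:Myc livers, 2.01, 0.21 and 3.06 in β-catΔEx3 livers, against 0.52, -0.58, -1.12 and -0.65 in WT livers. β-catΔEx3 replicate 2 was the single mutant liver below the highest WT liver. Psat1 was 2.74 ± 0.62 log2 units higher in β-catΔEx3:Myc livers (6.70-fold, adjusted p = 0.0051, 0.066 with the slide block) and 2.22 ± 0.67 higher in β-catΔEx3 livers (4.66-fold, adjusted p = 0.025, 0.11 with the slide block). The second call was lost without any 1 of WT replicates 2, 3 and 4 or β-catΔEx3 replicates 1 and 3, with adjusted p from 0.051 to 0.099. Its value was 1.57 with replicate 3 of that group left out and 2.99 with replicate 2 left out.

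Phgdh, which commits a glycolytic intermediate to serine, had levels of 3.10, 0.60, -0.95 and 2.89 in β-catΔEx3:Myc livers, -1.91, -1.79 and -1.56 in β-catΔEx3 livers, against -0.63, -1.02, -1.51 and -1.60 in WT livers. β-catΔEx3:Myc replicate 3 lay within the WT range, the other 3 lay above it, and the β-catΔEx3 livers lay near its bottom or below it. Phgdh was 2.6 ± 0.76 log2 units higher in β-catΔEx3:Myc than in WT livers (6.07-fold, adjusted p = 0.019, 0.039 with the slide block), and 3.39 higher without β-catΔEx3:Myc replicate 3. The slide block also takes that liver, alone on its slide, out of the comparison. In β-catΔEx3 against WT livers Phgdh differed by -0.56 ± 0.82 (adjusted p = 0.63). Psph, the phosphatase that completes serine, differed by -0.16 ± 0.35 in β-catΔEx3:Myc and by -0.39 ± 0.37 in β-catΔEx3 livers (adjusted p = 0.75 and 0.44).

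Downstream of serine, Shmt2 passes its carbon to mitochondrial folate. Its levels were 5.86, 5.75, 6.17 and 5.50 in β-catΔEx3:Myc livers, 6.17, 6.41 and 5.63 in β-catΔEx3 livers, against 4.81, 4.65, 4.84 and 5.01 in WT livers. The WT livers all lay below the mutant ones. Shmt2 was 0.99 ± 0.20 higher in β-catΔEx3:Myc livers (1.99-fold, adjusted p = 0.0028, 0.35 with the slide block) and 1.25 ± 0.22 higher in β-catΔEx3 livers (2.37-fold, adjusted p = 0.0016, 0.10 with the slide block). Mthfd2, the next mitochondrial folate enzyme, differed by 1.46 ± 0.73 and 1.95 ± 0.79 without passing the test (adjusted p = 0.13 and 0.076). Its highest liver was β-catΔEx3 replicate 3, and the second value was 1.06 with that liver left out (adjusted p = 0.29) and 2.55 with β-catΔEx3 replicate 2 left out (adjusted p = 0.041).

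The transporters carry amino acids across the plasma membrane. Slc7a1, for arginine and lysine, had levels of 1.80, 1.73, 0.51 and 2.05 in β-catΔEx3:Myc livers, 1.31, -0.10 and 2.35 in β-catΔEx3 livers, against -0.41, -0.50, -0.75 and -0.85 in WT livers. No mutant liver overlapped a WT liver. Slc7a1 was 2.15 ± 0.48 higher in β-catΔEx3:Myc livers (4.44-fold, adjusted p = 0.0047, 0.028 with the slide block) and 1.81 ± 0.51 higher in β-catΔEx3 livers (3.52-fold, adjusted p = 0.019, 0.051 with the slide block). The second call was lost without β-catΔEx3 replicate 1 (adjusted p = 0.060) or 3 (adjusted p = 0.071, value 1.23), and the value was 2.46 without replicate 2.

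Slc3a2, the heavy chain that brings several transporters to the membrane, had levels of 6.24, 5.71, 6.84 and 4.83 in β-catΔEx3:Myc livers, 7.23, 5.78 and 7.39 in β-catΔEx3 livers, against 4.90, 4.67, 4.88 and 4.28 in WT livers. β-catΔEx3:Myc replicate 4 lay within the WT range. Slc3a2 was 2.12 ± 0.48 higher in β-catΔEx3 livers (4.34-fold, adjusted p = 0.0068, 0.10 with the slide block). Against WT, β-catΔEx3:Myc livers were 1.22 ± 0.45 higher (2.33-fold, adjusted p = 0.049, 0.35 with the slide block), a call that was lost without any 1 of the 4 WT livers, of β-catΔEx3:Myc replicates 1, 2 and 3 or of β-catΔEx3 replicate 1 (adjusted p from 0.056 to 0.13).

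Slc7a5, the light chain for leucine and other large amino acids, had levels of -0.40, -1.39, -1.73 and -1.11 in β-catΔEx3:Myc livers, -1.60, -1.69 and -1.30 in β-catΔEx3 livers, against -2.94, -3.28, -2.52 and -1.39 in WT livers. WT replicate 4 stood among the mutant livers. Slc7a5 was 1.37 ± 0.40 higher in β-catΔEx3:Myc livers (2.59-fold, adjusted p = 0.017, 0.57 with the slide block), with an adjusted p of 0.052 without WT replicate 2. In β-catΔEx3 livers the difference of 1.00 ± 0.43 did not pass (adjusted p = 0.089), but it was 1.38 with an adjusted p of 0.011 without WT replicate 4. The dimmer of its 2 probes gave 0.89 in β-catΔEx3:Myc and 0.31 in β-catΔEx3 livers, also called in the first comparison alone.

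Among the transcription factors of the arm, Atf4 mRNA did not change beyond the spread. Its levels were 7.2, 7.16, 7.03 and 7.33 in β-catΔEx3:Myc livers, 7.19, 6.76 and 8.28 in β-catΔEx3 livers, against 7.39, 6.77, 7.03 and 6.92 in WT livers. β-catΔEx3 replicate 3 stood alone above the rest. The difference from WT was 0.15 ± 0.28 in β-catΔEx3:Myc livers (95% interval -0.48 to 0.78, adjusted p = 0.70) and 0.38 ± 0.31 in β-catΔEx3 livers (-0.30 to 1.06, adjusted p = 0.36).

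Ddit3 (CHOP), a factor of prolonged stress, had levels of 1.13, 0.68, 0.77 and 0.73 in β-catΔEx3:Myc livers, 0.14, 0.67 and 2.06 in β-catΔEx3 livers, against 0.62, 0.84, 0.85 and 0.07 in WT livers. The groups overlapped, with β-catΔEx3 replicate 3 highest. It differed from WT by 0.23 ± 0.36 and 0.36 ± 0.39 (adjusted p = 0.63 and 0.49). Atf5, a related factor that is also translated when eIF2α is phosphorylated, was lower by -0.99 ± 0.23 in β-catΔEx3:Myc livers (adjusted p = 0.0060, 0.43 with the slide block) and by -0.72 ± 0.25 in β-catΔEx3 livers (adjusted p = 0.042, 0.63 with the slide block). The call in β-catΔEx3 livers did not hold without any 1 of WT replicates 1, 2 and 3, β-catΔEx3:Myc replicates 1, 3 and 4 or the 3 β-catΔEx3 livers (adjusted p from 0.050 to 0.13).

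Atf3, a stress-induced factor of the same family, had levels of 2.35, 1.23, 1.08 and 1.83 in β-catΔEx3:Myc livers, 1.44, 1.79 and 2.73 in β-catΔEx3 livers, against 0.07, -0.65, -1.65 and -2.35 in WT livers. No mutant liver overlapped a WT liver. Atf3 was 2.77 ± 0.51 higher in β-catΔEx3:Myc livers (6.83-fold, adjusted p = 0.0018, 0.021 with the slide block) and 3.13 ± 0.55 higher in β-catΔEx3 livers (8.76-fold, adjusted p = 0.0018, 0.018 with the slide block).

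Nupr1, a small stress-induced chromatin protein, had levels of 4.95, 5.04, 3.77 and 3.54 in β-catΔEx3:Myc livers, 4.56, 2.08 and 6.99 in β-catΔEx3 livers, against 2.06, 1.62, 1.38 and 1.27 in WT livers. β-catΔEx3 replicate 2 lay just above the highest WT liver, and replicate 3 was the highest liver. Nupr1 was 2.74 ± 0.83 higher in β-catΔEx3:Myc livers (6.69-fold, adjusted p = 0.022, 0.17 with the slide block), lost without β-catΔEx3:Myc replicate 1 or 2 (adjusted p = 0.055 and 0.058). In β-catΔEx3 livers it was 2.96 ± 0.89 higher (7.77-fold, adjusted p = 0.025, 0.17 with the slide block). That call was lost without any 1 of WT replicates 2, 3 and 4 or β-catΔEx3 replicates 1 and 3 (adjusted p from 0.051 to 0.072), and the value ran from 1.74 without β-catΔEx3 replicate 3 to 4.19 without replicate 2.

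Effectors and brakes were mixed. Vldlr, a lipoprotein receptor that Atf4 can induce in liver, had levels of 3.14, 3.39, 3.66 and 2.73 in β-catΔEx3:Myc livers, 4.45, 3.43 and 5.27 in β-catΔEx3 livers, against 1.92, 0.70, 1.64 and -1.43 in WT livers. WT replicate 4 stood well below the other WT livers, and no mutant liver overlapped any of them. Vldlr was 2.52 ± 0.67 higher in β-catΔEx3:Myc livers (5.75-fold, adjusted p = 0.011, 0.018 with the slide block) and 3.68 ± 0.72 higher in β-catΔEx3 livers (12.8-fold, adjusted p = 0.0030, 0.0087 with the slide block). Without WT replicate 4 these values were 1.81 and 2.97, both past the threshold.

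Ddit4 (REDD1), which restrains mTOR signalling, had levels of 5.17, 7.03, 5.59 and 4.53 in β-catΔEx3:Myc livers, 6.74, 5.57 and 6.33 in β-catΔEx3 livers, against 2.82, 3.80, 3.77 and 4.00 in WT livers. Both mutant groups lay wholly above WT. It was 1.98 ± 0.49 higher in β-catΔEx3:Myc livers (3.95-fold, adjusted p = 0.0085, 0.49 with the slide block) and 2.62 ± 0.53 higher in β-catΔEx3 livers (6.13-fold, adjusted p = 0.0038, 0.29 with the slide block). Eif4ebp1, a repressor of cap-dependent translation, had levels of 7.32, 6.81, 7.37 and 5.92 in β-catΔEx3:Myc livers, 7.52, 6.80 and 7.56 in β-catΔEx3 livers, against 5.78, 5.15, 5.32 and 5.31 in WT livers. The lowest mutant liver was close above the highest WT liver. It was 1.46 ± 0.32 higher in β-catΔEx3:Myc livers (2.76-fold, adjusted p = 0.0044, 0.26 with the slide block) and 1.90 ± 0.35 higher in β-catΔEx3 livers (3.74-fold, adjusted p = 0.0021, 0.12 with the slide block).

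Chac1, an enzyme that breaks down glutathione and is a classical target of Atf4, went against the arm. Its levels were 1.08, -0.66, 0.07 and 0.56 in β-catΔEx3:Myc livers, -0.12, 0.60 and 4.97 in β-catΔEx3 livers, against 2.55, 2.49, 2.67 and 3.21 in WT livers. All mutant livers lay below WT except β-catΔEx3 replicate 3, which was the highest of all. Chac1 was lower by -2.47 ± 0.91 in β-catΔEx3:Myc livers (adjusted p = 0.049, 0.61 with the slide block), and the call was lost without any 1 of the 8 livers compared (adjusted p from 0.056 to 0.12). In β-catΔEx3 livers the difference was -0.91 ± 0.98 (adjusted p = 0.50). It was 0.06 with β-catΔEx3 replicate 1 left out, -0.31 with replicate 2 left out and -2.49 with replicate 3 left out, and the last of these passed the test (adjusted p = 0.0034).

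The 3 further members of this role did not pass the test in either comparison with WT: Trib3, a pseudokinase that curbs the response, differed by 0.77 in β-catΔEx3:Myc and 0.68 in β-catΔEx3 livers. Single livers carried the second Trib3 value, which was 1.76 with β-catΔEx3 replicate 2 left out and -0.13 with replicate 3 left out. Sesn2, a leucine sensor that restrains mTOR, differed by 0.54 and 0.34, and Ppp1r15a (GADD34), which reverses eIF2α phosphorylation, by 0.52 and -0.01 (adjusted p from 0.17 to 0.98). Without β-catΔEx3 replicate 2 Sesn2 passed in both (adjusted p = 0.032 and 0.018).

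**Figure D4:**
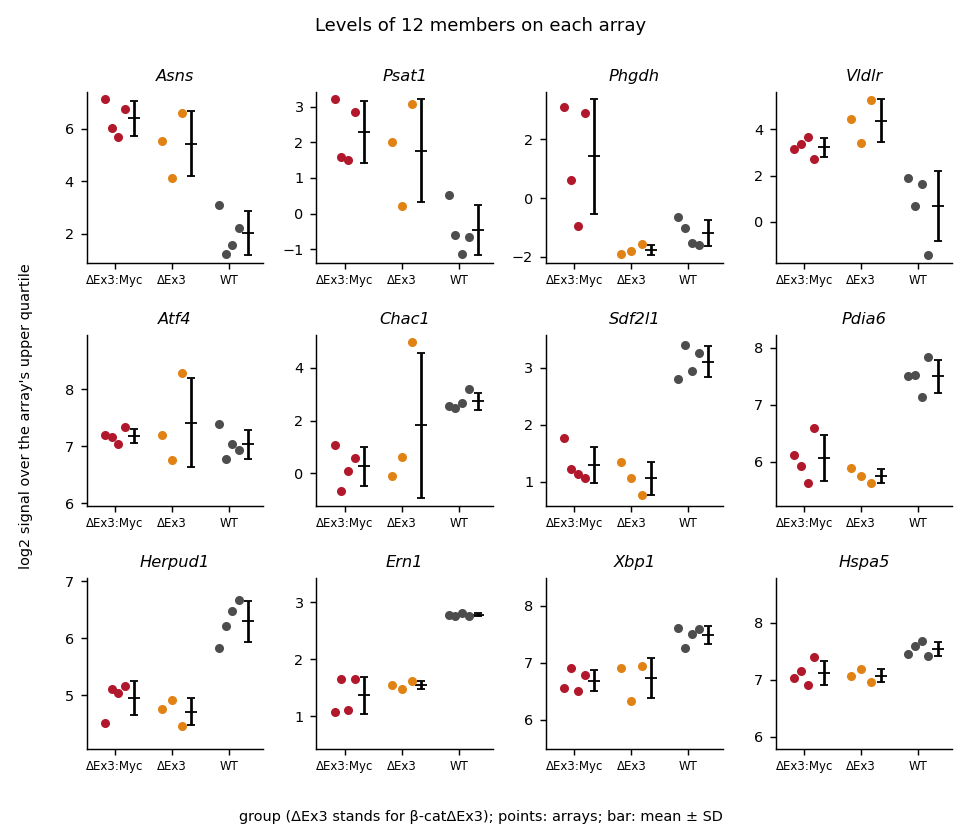
Levels of 12 members on each array (log2 signal over the array's upper quartile); points are livers in the order β-catΔEx3:Myc, β-catΔEx3 and WT, and bars are group means ± SD. Asns, Psat1 and Vldlr are higher in both mutant groups, Phgdh is high in 3 of 4 β-catΔEx3:Myc livers, Atf4 overlaps between groups, and Sdf2l1, Pdia6, Herpud1, Ern1 and Xbp1 are lower in both mutant groups.

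In the ER arm, 2 of the 4 sensors and factors were lower. Ern1 had levels of 1.08, 1.65, 1.11 and 1.66 in β-catΔEx3:Myc livers, 1.55, 1.49 and 1.62 in β-catΔEx3 livers, against 2.78, 2.76, 2.82 and 2.76 in WT livers. The 4 WT livers lay within 0.1 of each other and above all mutant livers. Ern1 was lower by -1.40 ± 0.16 in β-catΔEx3:Myc livers (adjusted p = 0.00013, 0.047 with the slide block) and by -1.23 ± 0.17 in β-catΔEx3 livers (adjusted p = 0.00059, 0.059 with the slide block).

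Xbp1, the factor that Ern1 activates by splicing, had levels of 6.56, 6.91, 6.5 and 6.78 in β-catΔEx3:Myc livers, 6.92, 6.33 and 6.95 in β-catΔEx3 livers, against 7.61, 7.26, 7.51 and 7.59 in WT livers. The mutant groups lay wholly below WT. Xbp1 was lower by -0.80 ± 0.18 in β-catΔEx3:Myc livers (adjusted p = 0.0044, 0.21 with the slide block) and by -0.76 ± 0.19 in β-catΔEx3 livers (adjusted p = 0.011, 0.21 with the slide block). The array's probe does not separate the spliced from the unspliced form.

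Atf6, the sensor that is cut into a transcription factor, had levels of 0.22, 0.19, 0.16 and -0.28 in β-catΔEx3:Myc livers, 0.31, 0.39 and -0.10 in β-catΔEx3 livers, against 0.24, 0.02, 0.35 and 0.52 in WT livers. Eif2ak3 (PERK), the ER kinase of eIF2α, had levels of 1.90, 1.5, 1.17 and 1.85 in β-catΔEx3:Myc livers, 1.67, 1.54 and 1.89 in β-catΔEx3 livers, against 1.37, 1.57, 1.77 and 1.67 in WT livers. For both genes the groups overlapped, and neither passed the test. Atf6 differed by -0.21 ± 0.18 and -0.09 ± 0.19 (adjusted p = 0.36 and 0.75). Eif2ak3 differed by 0.01 ± 0.19 (95% interval -0.40 to 0.42) in β-catΔEx3:Myc and by 0.10 ± 0.20 (-0.34 to 0.55) in β-catΔEx3 livers (adjusted p = 0.97 and 0.72).

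The ER chaperones and folding enzymes held 12 members, of which 8 were lower in β-catΔEx3:Myc and 7 in β-catΔEx3 livers. Sdf2l1, a component of ER chaperone complexes, changed most. Its levels were 1.76, 1.22, 1.14 and 1.07 in β-catΔEx3:Myc livers, 1.35, 1.06 and 0.77 in β-catΔEx3 livers, against 2.80, 3.39, 2.94 and 3.26 in WT livers. The mutant groups lay more than 1 log2 unit below the lowest WT liver. Sdf2l1 was lower by -1.80 ± 0.21 in β-catΔEx3:Myc livers (adjusted p = 0.00013, 0.016 with the slide block) and by -2.04 ± 0.22 in β-catΔEx3 livers (adjusted p = 0.00015, 0.011 with the slide block).

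Pdia6, a protein disulphide isomerase, had levels of 6.13, 5.94, 5.62 and 6.59 in β-catΔEx3:Myc livers, 5.89, 5.74 and 5.63 in β-catΔEx3 livers, against 7.50, 7.52, 7.14 and 7.84 in WT livers. No mutant liver reached a WT liver. Pdia6 was lower by -1.43 ± 0.22 in β-catΔEx3:Myc livers (adjusted p = 0.00060, 0.036 with the slide block) and by -1.75 ± 0.23 in β-catΔEx3 livers (adjusted p = 0.00045, 0.017 with the slide block). Its 2 probes were called lower in both comparisons.

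Pdia4, another isomerase, had levels of 1.81, 1.70, 1.80 and 2.20 in β-catΔEx3:Myc livers, 1.90, 1.53 and 1.97 in β-catΔEx3 livers, against 2.53, 3.05, 3.18 and 3.03 in WT livers. Again the groups with mutant β-catenin lay below WT. Pdia4 was lower by -1.07 ± 0.19 in β-catΔEx3:Myc livers (adjusted p = 0.0013, 0.13 with the slide block) and by -1.15 ± 0.20 in β-catΔEx3 livers (adjusted p = 0.0016, 0.10 with the slide block). Pdia3, which folds glycoproteins, was lower by -0.82 ± 0.16 and -0.93 ± 0.17 (adjusted p = 0.0023 and 0.0022).

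Hspa5 (BiP), the central chaperone of the ER and the standard readout of its stress, moved little. Its levels were 7.04, 7.15, 6.91 and 7.39 in β-catΔEx3:Myc livers, 7.07, 7.19 and 6.97 in β-catΔEx3 livers, against 7.46, 7.59, 7.67 and 7.41 in WT livers. The mutant groups lay below WT, with a difference of only -0.02 between the β-catΔEx3:Myc and WT livers of slide 4. Hspa5 was lower by -0.41 ± 0.14 in β-catΔEx3:Myc livers and by -0.46 ± 0.15 in β-catΔEx3 livers (adjusted p = 0.037 in both, 0.69 and 0.48 with the slide block). Leaving out any 1 of WT replicates 1, 2 and 3 ended both calls, as did β-catΔEx3:Myc replicates 1, 2 or 3 for the first and β-catΔEx3:Myc replicate 2 or β-catΔEx3 replicate 1 or 3 for the second (adjusted p from 0.050 to 0.10).

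Hsp90b1 (GRP94), a chaperone of secreted and membrane proteins, was lower by -0.68 ± 0.14 in β-catΔEx3:Myc and by -0.69 ± 0.15 in β-catΔEx3 livers (adjusted p = 0.0030 and 0.0052). Dnajc3, a co-chaperone of Hspa5, was lower by -0.85 ± 0.19 and -0.70 ± 0.20 (adjusted p = 0.0045 and 0.020), and the second call was lost without WT replicate 2 or 3 or β-catΔEx3 replicate 3 (adjusted p from 0.053 to 0.078). Creld2, an ER-resident gene induced with the chaperones, had levels of 4.89, 4.63, 4.67 and 4.96 in β-catΔEx3:Myc livers, 5.01, 5.56 and 5.18 in β-catΔEx3 livers, against 5.67, 6.48, 6.79 and 5.36 in WT livers. WT replicate 4 overlapped the β-catΔEx3 livers, while the β-catΔEx3:Myc livers lay below all others. Creld2 was lower by -1.29 ± 0.29 in β-catΔEx3:Myc livers (2.44-fold, adjusted p = 0.0053, 0.53 with the slide block). In β-catΔEx3 livers the difference of -0.82 ± 0.32 did not pass (adjusted p = 0.063), and without WT replicate 4 it was -1.06 with an adjusted p of 0.017.

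The 4 remaining members of this role passed in neither comparison. The lectin chaperones Calr and Canx, which hold glycoproteins until they fold, differed in sign: Calr by -0.51 and -0.58, Canx by 0.34 in both. Manf, a secreted ER-stress protein, differed by -0.62 and -0.65 (adjusted p = 0.052 and 0.063), and Dnajb9, which restrains Ern1, by -0.61 and -0.23. The dimmer probe of Dnajb9 was lower in both, by -0.95 and -0.67 (adjusted p = 0.0043 and 0.038). Of these, Calr passed without β-catΔEx3 replicate 3 (β-catΔEx3:Myc livers) or replicate 2 (β-catΔEx3 livers), Canx and Dnajb9 without WT replicate 4 in β-catΔEx3:Myc livers, and Manf without WT replicate 4, β-catΔEx3:Myc replicate 1 or β-catΔEx3 replicate 2 or 3.

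Of the 3 degradation genes, Herpud1 and Sel1l were lower. Herpud1, which gathers the retrotranslocation machinery, had levels of 4.52, 5.11, 5.05 and 5.17 in β-catΔEx3:Myc livers, 4.76, 4.92 and 4.46 in β-catΔEx3 livers, against 5.84, 6.21, 6.48 and 6.67 in WT livers. No mutant liver overlapped a WT liver. Herpud1 was lower by -1.34 ± 0.22 in β-catΔEx3:Myc livers (adjusted p = 0.00086, 0.044 with the slide block) and by -1.59 ± 0.23 in β-catΔEx3 livers (adjusted p = 0.00070, 0.032 with the slide block). Sel1l, the adaptor of the ligase Syvn1, was lower by -0.96 ± 0.16 and -0.94 ± 0.18 (adjusted p = 0.0012 and 0.0025). Edem1, which passes misfolded glycoproteins to degradation, differed by -0.47 and -0.13 without passing (adjusted p = 0.15 and 0.74).

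**Figure D5:**
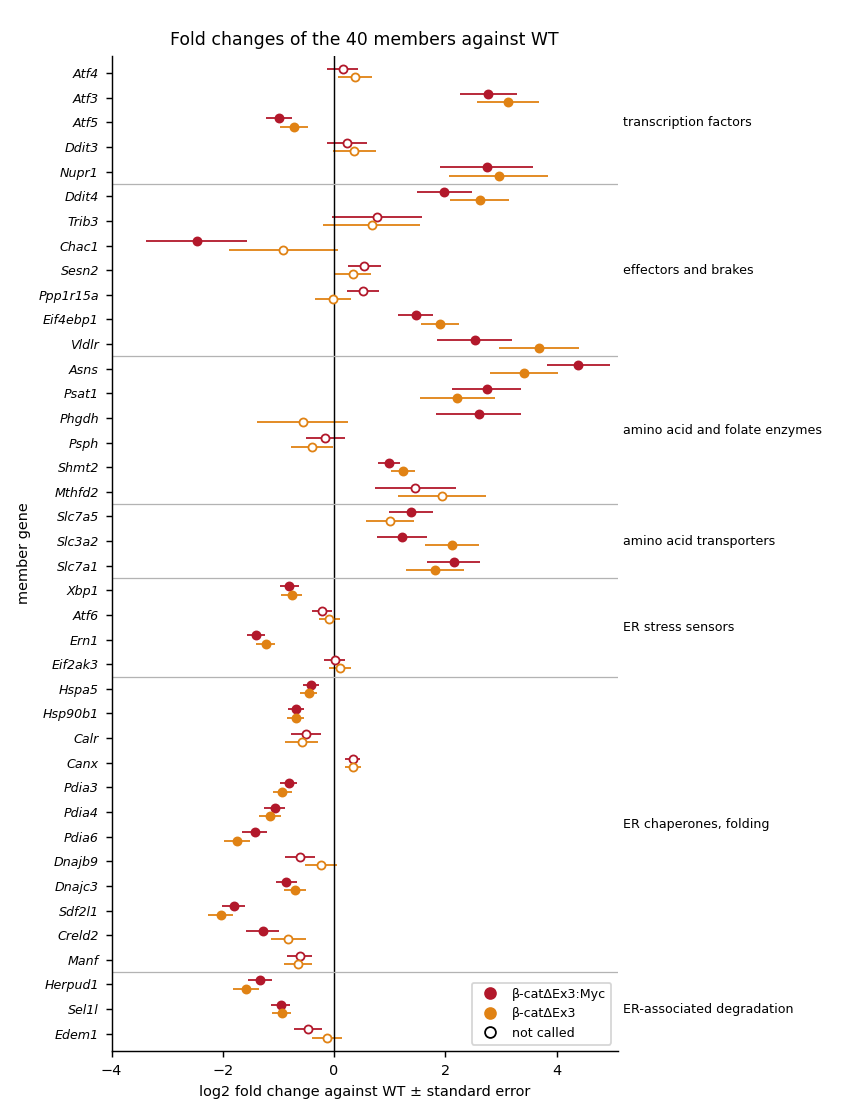
Log2 fold change ± SE of each of the 40 members against WT (rows, by role), in β-catΔEx3:Myc (red) and β-catΔEx3 livers (orange); filled points passed an adjusted p of 0.05 and open points did not. In the Atf4 arm 12 red and 10 orange filled points lie right of 0; in the ER arm 12 red and 11 orange filled points lie left of it.

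Adding Myc to mutant β-catenin was addressed by β-catΔEx3:Myc against β-catΔEx3 livers. No member of either arm passed the test in this comparison, in which limma called 0.337% of all transcripts. At an unadjusted p under 0.05, 1 of 40 members passed, against 10.3% of all transcripts. That member was Phgdh, whose 4 β-catΔEx3:Myc livers lay above all 3 β-catΔEx3 livers: it was 3.16 ± 0.82 log2 units higher (95% interval 1.34 to 4.99, 8.97-fold, adjusted p = 0.16). Within slide 2 the difference was 3.70 and within slide 4 it was 4.46. β-catΔEx3:Myc replicate 3, whose Phgdh level lay within the WT range, was alone on its slide. The slide block therefore takes it out of this difference. With the block Phgdh was 3.95 ± 0.60 higher with an adjusted p of 0.042. Leaving that liver out gave the same 3.95, with an adjusted p of 0.018, so these are not separate checks. Its other probe gave 3.14. Over all transcripts the blocked fit called 0.512% higher. In the same comparison all 7 tested neutrophil markers passed an unadjusted p of 0.05, 6 of them higher and 1 lower. None of the 7 passed the adjusted one, and 4 were called higher with slide as a block. Their summed signal was 10.1 to 96.9 in β-catΔEx3:Myc and 6.56 to 16.1 in β-catΔEx3 livers. Of the endothelial markers 4 of 7 passed at the unadjusted level, and all 7 had log2 fold changes below 0 (median -0.97). So did 3 of 8 hepatocyte, 3 of 8 stellate cell and 3 of 7 biliary markers pass at that level. The part of these cell types in the Phgdh difference was not tested.

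The intervals for the other members show what this comparison could not settle. For Asns the difference was 0.98 (95% interval -0.37 to 2.33) and for Psat1 0.53 (-0.95 to 2.0). For Slc3a2 it was -0.89 (-1.97 to 0.18), for Vldlr -1.16 (-2.75 to 0.44) and for Chac1 -1.56 (-3.73 to 0.62). Single β-catΔEx3 livers carried several of these values. With replicate 2 left out Asns was 0.33 and Psat1 -0.25, and with replicate 3 left out they were 1.57 and 1.18. Chac1 was -2.52 with replicate 1 left out, -2.16 with replicate 2 left out and 0.02 with replicate 3 left out. The differences of Trib3, Mthfd2, Slc7a1 and Nupr1, at 0.09, -0.49, 0.34 and -0.22, also changed sign when replicate 2 or replicate 3 was left out. The ER arm was held more tightly: its differences ran from -0.46 (Creld2) to 0.31 (Pdia6), with intervals that reached at most -1.16 (Creld2) and 0.83 (Pdia6). The median difference was -0.22 over the Atf4 arm and 0.00 over the ER arm, beside 0.00 over all transcripts.

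The arms also differed in how much they varied between livers of a group. The median SD of an Atf4-arm member was 0.67 in β-catΔEx3:Myc livers, 0.81 in β-catΔEx3 livers and 0.37 in WT livers, beside 0.31, 0.32 and 0.24 over all transcripts. For the ER arm it was 0.22, 0.28 and 0.21. β-catΔEx3 replicate 3 was the highest liver for 11 of 21 Atf4-arm members and the lowest for 6 of 19 ER-arm members. β-catΔEx3 replicate 2, of the same group, had the lowest Atf4 arm of all mutant livers, at 0.48.

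Other genes of these pathways were taken from 7 lists by function, with 77 genes tested. Their calls here come from the fit without the slide block. Fewer passed with slide as a block, as counted in the last section. In β-catΔEx3:Myc against WT livers 23 were higher (29.9%) and 19 lower (24.7%), beside 24.8% and 17.3% of all transcripts. In β-catΔEx3 against WT livers 23 were higher (29.9%) and 16 lower (20.8%), beside 21.8% and 15.4% of all transcripts. The pooled shares lay only a little above those of all transcripts. The pooled median log2 fold change was 0.005 (β-catΔEx3:Myc) and 0.17 (β-catΔEx3), beside 0.13 and 0.10 over all transcripts. The pooled lists went different ways, so the pooled counts are not read as a result about these genes. Of the tRNA synthetases 58.3% (β-catΔEx3:Myc) and 66.7% (β-catΔEx3) were higher, and 16.7% and 8.33% lower. Of the ER folding genes 38.5% and 46.2% were lower, and 7.69% higher in both. No test was made of the lists. Genes are named by the size of their change in each comparison, so 1 named for a single group can be called in both. Of 12 cytosolic tRNA synthetases, which charge amino acids onto tRNA and include Atf4 targets, 7 were higher and 2 lower in β-catΔEx3:Myc livers, and 8 higher and 1 lower in β-catΔEx3 livers. Gars was higher by 1.27 ± 0.21 and 1.16 ± 0.23 (adjusted p = 0.0010 and 0.0032), whereas Tars was lower by -1.26 ± 0.16 and -1.1 ± 0.18 (adjusted p = 0.00025 and 0.0011). Vars was higher by 1.18 in β-catΔEx3:Myc livers. Yars was higher by 0.94 in β-catΔEx3:Myc and by 1.16 in β-catΔEx3 livers. Its first call (adjusted p = 0.022) was lost without WT replicate 2 or β-catΔEx3:Myc replicate 1 or 4. Of 10 kinases and factors around eIF2, 5 were higher and 1 lower in β-catΔEx3:Myc livers and 4 higher in β-catΔEx3 livers, led by the exchange-factor subunits Eif2b3 (1.26 and 1.23) and Eif2b4 (0.79 and 0.85) and by eIF2α itself, Eif2s1 (0.76 and 0.80).

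Of 8 further metabolic genes, 2 were higher and 1 lower in both comparisons. Mthfd1l, a mitochondrial folate enzyme, was higher by 2.77 ± 0.29 in β-catΔEx3:Myc and 2.01 ± 0.32 in β-catΔEx3 livers (6.81-fold and 4.03-fold, adjusted p = 7.9e-05 and 0.00095). Cth, which makes cysteine from cystathionine, was higher by 2.61 ± 0.31 and 2.11 ± 0.33, while Cbs, the enzyme before it, was lower by -1.08 in both. Of 12 transporters, signals and partner factors, 4 were higher and 4 lower in β-catΔEx3:Myc livers, and 5 higher and 1 lower in β-catΔEx3 livers. The 4 lower ones were Jdp2 (-1.92 ± 0.37), Slc38a2 (-1.87 ± 0.22), Slc1a4 (-0.79 ± 0.27) and Cebpg (-0.64 ± 0.17), with adjusted p from 0.00014 to 0.038. The Slc1a4 call was lost with single livers left out (adjusted p up to 0.088). The mean level of Slc38a2 was 3.94 in β-catΔEx3 livers, against 5.57 in WT livers. Slc7a11, the cystine importer, was not well above background in any WT liver; it was at least 22.1-fold higher in β-catΔEx3:Myc livers, where 3 of 4 arrays measured it, and at least 95.7-fold higher in β-catΔEx3 livers (adjusted p = 0.0012 and 0.00056). The first bound was 12.9-fold without β-catΔEx3:Myc replicate 3 and 59.0-fold without replicate 4, in which it was not well above background. These bounds set the mutant mean against the lowest signal well above background on the WT arrays. Slc7a3, a cationic amino acid transporter likewise not well above background in WT livers, was at least 3.58-fold higher in β-catΔEx3:Myc livers (adjusted p = 0.00053). The glutamine transporter Slc1a5 was higher by 3.43 ± 0.37 and 3.82 ± 0.40. The hormone Gdf15 was higher by 2.73 ± 0.50 in β-catΔEx3:Myc and by 3.45 ± 0.54 in β-catΔEx3 livers (adjusted p = 0.0016 and 0.00089).

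The other ER lists held calls in both directions, most of them lower. Of 13 folding genes, 1 was higher and 5 lower in β-catΔEx3:Myc livers, and 1 higher and 6 lower in β-catΔEx3 livers. The oxidase Ero1b was lower by -1.44 ± 0.20 and -1.39 ± 0.21 (adjusted p = 0.00032 and 0.00083), and the chaperone Hyou1 by -1.12 and -1.0. Dnajb11 was lower by -0.76 in β-catΔEx3:Myc livers. Erp44 was lower by -0.51 in β-catΔEx3:Myc and by -0.83 in β-catΔEx3 livers. Its first call had an adjusted p of 0.021, and of up to 0.056 with single livers left out. Of 16 translocation and degradation genes, 2 were higher and 5 lower in β-catΔEx3:Myc livers, and 1 higher and 6 lower in β-catΔEx3 livers. Tram1, at the translocation channel, was lower by -1.36 ± 0.26 and -1.73 ± 0.28 (adjusted p = 0.0021 and 0.0011). Derl2 and the ligase Syvn1 were lower by -1.12 and -0.84 in β-catΔEx3:Myc livers, and Derl3 by -1.99 ± 0.65 in β-catΔEx3 livers, in which Wfs1 was higher by 0.89. Of 6 factors and their proteases, 2 were higher and 1 lower in both comparisons: Mbtps2, by 1.1 and 1.23, and Atf6b, by 0.77 and 0.67, were higher, and Mbtps1, by -0.44 and -0.59, was lower. The Mbtps1 call in β-catΔEx3:Myc livers (adjusted p = 0.048) was lost without any 1 of 10 of the 11 livers, all but β-catΔEx3:Myc replicate 4, and 3 single livers each ended its call in β-catΔEx3 livers. In β-catΔEx3 livers the calls of Atf6b and Derl3 were each lost without any 1 of 4 livers and that of Yars without either of 2.

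Marker genes of several cell types also differed between mutant and WT livers, not all of them alike in the 2 mutant groups. In bulk liver, fewer cells of a type and less RNA per cell cannot be told apart. Of all transcripts, 24.8% were called higher and 17.3% lower in β-catΔEx3:Myc against WT livers. In β-catΔEx3 against WT livers these shares were 21.8% and 15.4%. Some marker counts below lie near or under these shares. All 7 tested macrophage markers were lower in both comparisons with WT, and their summed signal, in multiples of the array's upper quartile, was 14.9 to 46.4 in β-catΔEx3:Myc livers, 17 to 42.2 in β-catΔEx3 livers and 185 to 276 in WT livers. Of 6 tested markers of B and plasma cells, which are rich in ER chaperones, 5 were lower in β-catΔEx3:Myc and 4 in β-catΔEx3 livers, with sums of 13.6 to 14.7 in β-catΔEx3:Myc, 13.1 to 29.1 in β-catΔEx3 and 17.9 to 22.7 in WT livers; Tnfrsf17 and Cd79a were not well above background on enough arrays. Of 7 endothelial markers, 5 were lower in β-catΔEx3:Myc and 4 in β-catΔEx3 livers; their sums were 31.8 to 50.9 in β-catΔEx3:Myc, 62.9 to 81.9 in β-catΔEx3 and 132 to 154 in WT livers. Of 8 hepatocyte markers, 1 was higher and 2 lower in β-catΔEx3:Myc livers and 4 were lower in β-catΔEx3 livers. Hepatocyte sums were 4240 to 6690 in β-catΔEx3:Myc, 4420 to 5680 in β-catΔEx3 and 6650 to 8650 in WT livers. T and NK cell markers were lower for 4 of 6 and higher for 1 in β-catΔEx3:Myc livers and lower for 4 in β-catΔEx3 livers, with sums of 25.3 to 51.6 in β-catΔEx3:Myc, 19.9 to 43.8 in β-catΔEx3 and 61.0 to 72.7 in WT livers. Of 8 stellate cell markers 5 were lower in β-catΔEx3:Myc and 2 in β-catΔEx3 livers, with sums of 30.6 to 58.9 in β-catΔEx3:Myc, 75.1 to 83.4 in β-catΔEx3 and 91.1 to 162 in WT livers. Of 7 erythroid markers, 2 were higher and 1 lower in β-catΔEx3:Myc livers and 1 was higher and 3 lower in β-catΔEx3 livers, with sums of 37.0 to 694 in β-catΔEx3:Myc, 45.1 to 159 in β-catΔEx3 and 431 to 816 in WT livers. Of 7 neutrophil markers, 2 were higher in β-catΔEx3:Myc and 1 in β-catΔEx3 livers, with sums of 10.1 to 96.9 in β-catΔEx3:Myc, 6.56 to 16.1 in β-catΔEx3 and 8.96 to 14.4 in WT livers. All 7 had log2 fold changes above 0 in β-catΔEx3:Myc against WT livers (median 1.83). In β-catΔEx3 against WT livers 6 of the 7 were below 0 (median over the 7 -1.80), none of them called lower. With slide as a block no macrophage or B and plasma cell marker was called lower in either comparison with WT. Of the endothelial markers, 3 were then lower in β-catΔEx3:Myc and 0 in β-catΔEx3 livers. The differences themselves stayed large under the block, which rests on WT replicate 4 alone. The median log2 fold change of the macrophage markers was -2.03 (β-catΔEx3:Myc) and -2.01 (β-catΔEx3) with it, against -2.98 and -3.04 without it. For the B and plasma cell markers it was -2.22 and -2.28 with the block, against -2.66 and -2.79. The part of these cell types in the fall of the ER arm and the rise of the Atf4 arm was not tested. Immediate-early genes, which respond to handling of tissue and among which Atf3 is often counted, had sums of 17.2 to 38.4 in β-catΔEx3:Myc, 16.5 to 45.6 in β-catΔEx3 and 11.8 to 25.3 in WT livers, with 1 of 9 higher and 1 lower in β-catΔEx3:Myc and 1 lower in β-catΔEx3 livers; their part was not tested. None of 7 tested proliferation markers passed in any of the 3 comparisons.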

How the data were processed

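Livers of 11 mice were measured on single-colour Agilent arrays, 1 file per array. Per the file headers and the submitters' processing notes, the authors read them with Agilent Feature Extraction 10.7.1.1, and the deposited processed signals are background-subtracted intensity values, not normalized between arrays. The deposited flags (1 or 0) mark spots well above background, saturated or outlying. A deposited matrix holds log2 values with 1 distribution in every column, used here as an alternative. Control and outlier spots were left out, spots of a probe averaged, and log2 intensity was scaled by each array's 75th percentile. Of 55681 probes, 29695 were well above background on at least 3 arrays. Accessions were matched to RefSeq mouse symbols, the brightest kept probe stood for a gene, and 22282 genes or unnamed accessions were tested. One limma 3.58.1 fit (R 4.3.3) with 3 group means gave every adjusted p (2-sided, Benjamini-Hochberg over all 22282, threshold 0.05; 8 residual and 2.52 prior degrees of freedom). Group levels are per liver; errors are the fit's SE unless named SD, and intervals are 95%. The number of arrays limits the precision.

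A member was given on every array where it was called with an absolute log2 fold change of at least 1. Atf4, Ddit3, Xbp1, Atf6, Ern1, Eif2ak3 and Hspa5 were always given on every array. Each other list names at most its 3 largest called changes per comparison with WT. Added to these were Gdf15, Yars and Erp44 in β-catΔEx3:Myc livers, and the lower transporters, signals and partner factors there. Members and lists were chosen with earlier results of these data known. Replicates were numbered in accession order, so no samples were paired. The fit was tested on simulated data. Alternatives were 2 other scalings, normexp background correction with an offset of 50, the deposited matrix, 2 other filters on dim probes, the mean of a gene's probes, slide as a fixed or random block, fits of 2 groups, eBayes with trend and robust, array weights, narrower arms, medians over members, and each liver left out.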

Additional observations from a re-analysis of the deposited data

Results flagged for a closer look

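Among 86 groups of 4 livers tested, 2 held a liver whose gap to the nearest other, over the group's whole range, exceeded Dixon's 95% critical value of 0.829, and chance gives about 1 in 20. Atf6 in β-catΔEx3:Myc replicate 4 had a level of -0.2844, below 0.16 to 0.22 in the other 3 β-catΔEx3:Myc livers; its ratio was 0.895. This liver and β-catΔEx3 replicate 3 (-0.10), both on slide 4, were the lowest 2 livers for Atf6, while WT replicate 4 on that slide was the highest (0.52). The mean of the Atf4 arm in WT replicate 1 was 0.4114, above -0.19 to -0.11 in the other 3 WT livers; its ratio was 0.869. WT replicate 1 also had the highest WT level of Asns, Psat1, Atf3 and Myc.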

How the results depend on the processing

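No called member changed sign under any alternative that was run. With slide as a fixed block, members called in β-catΔEx3:Myc against WT livers numbered 5 higher and 4 lower, in β-catΔEx3 against WT livers 2 higher and 3 lower, and in β-catΔEx3:Myc against β-catΔEx3 livers 1 higher. The other pathway genes then numbered 8 higher and 6 lower in β-catΔEx3:Myc and 6 higher and 5 lower in β-catΔEx3 livers against WT, and the difference between the arms' mean changes in β-catΔEx3:Myc livers was 2.66, against 2.07. That fit compares with WT replicate 4 alone. Quantile normalization gave 29 lower pathway genes in β-catΔEx3:Myc livers and ER-arm medians of -0.99 (β-catΔEx3:Myc) and -1.01 (β-catΔEx3). In β-catΔEx3:Myc livers the ER-arm median was -0.94 with the other upper quartile, -0.93 with normexp and -0.92 in the authors' matrix, and normexp gave an Atf4-arm median of 0.81; the cause was not tested. Leaving out 1 liver at a time gave 15 to 26 higher pathway genes in β-catΔEx3:Myc livers (fewest without WT replicate 2) and 0 to 1 higher members against β-catΔEx3 livers (1 without β-catΔEx3:Myc replicate 3). Of the single-member values under the other settings, 51 lost their call, 34 of them under the fixed slide block, 40 gained one and 1349 kept their side of the threshold; of 160 values within slide 2 or 4, which have no test, 52 moved by more than the spread between replicates. Leaving out single livers ended 55 calls and added 16. No filter on dim probes moved the median of all transcripts by -0.13 in β-catΔEx3:Myc livers, and the fixed slide block by -0.10, with 48.8% of calls higher. No paired analysis was possible because the replicate numbers follow accession order and the labels share no animal or litter number. Dim signal did not limit the members, all of which were above background on every array.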
